A study of Mus musculus with 8 samples.

Results

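The miR-17-92 and miR-106b-25 clusters were represented by 9 mature miRNAs, chosen by name as the main arms of both clusters. They were miR-17-5p, miR-18a-5p, miR-19a-3p, miR-19b-3p, miR-20a-5p and miR-92a-3p (6 members of miR-17-92), and miR-106b-5p, miR-93-5p and miR-25-3p (3 members of miR-106b-25). All 9 were listed in both deposited tables, which together held 3514 small RNA features and 1063 mature miRNAs. The cells were bone marrow-derived macrophages (BMDMs) of C57BL/6J mice, male and 10 weeks old by the study's methods, differentiated in medium conditioned by L929 cells, a fibroblast line that secretes Macrophage-Colony Stimulating Factor (M-CSF). Control cells kept M-CSF, and the other group had M-CSF withdrawn for 36 h, which deprives macrophages of their survival factor. An Ion Proton sequencer was used for 2 libraries of control cells and 2 of cells deprived of M-CSF, described in the methods as biological replicates. A SOLiD sequencer was used for the other 4 libraries, all without replicates: a control and a withdrawal library made from total RNA, and such a pair made from RNA selected at 25 to 40 nt.

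The miR-17-92 cluster is a polycistronic transcript, also known as oncomiR-1, that Myc activates in dividing cells, and miR-106b-25 is its relative within the cell cycle gene Mcm7. A mature miRNA recognises its target mRNAs mainly through its seed, the stretch near its 5′ end, and miRNAs with the same seed share many targets. Among the well-known targets are Bcl2l11 (Bim), which opposes survival, and E2f1 and Cdkn1a (p21), which govern entry into S phase. M-CSF is the main factor for survival and proliferation of macrophages in culture. No proliferation measurement was analysed here.

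The mature sequences are shown because the members fall into 4 seed groups, and because some of them differ by so few bases that counting can mix their reads. They are the RefSeq sequences of GRCm38.p6, written 5′ to 3′ with bases 2 to 8, the seed, in capitals. The miR-17 seed was shared by miR-17-5p and miR-20a-5p of the first cluster and by miR-106b-5p and miR-93-5p of the second:
mmu-miR-17-5p: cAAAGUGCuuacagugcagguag
mmu-miR-20a-5p: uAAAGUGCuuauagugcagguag
mmu-miR-106b-5p: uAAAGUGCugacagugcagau
mmu-miR-93-5p: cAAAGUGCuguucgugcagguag
The miR-18 seed was carried by 1 member:
mmu-miR-18a-5p: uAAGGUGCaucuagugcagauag
The miR-19 seed was carried by both miR-19 members and by no other mature miRNA of the reference:
mmu-miR-19a-3p: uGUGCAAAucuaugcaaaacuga
mmu-miR-19b-3p: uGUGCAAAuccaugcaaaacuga
The miR-92 seed linked the last member of each cluster:
mmu-miR-92a-3p: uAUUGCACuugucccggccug
mmu-miR-25-3p: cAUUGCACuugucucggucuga
Counted from 1 at the 5′ end, miR-19a-3p and miR-19b-3p differed by the single substitution U11C. The substitutions C1U and C12U separated miR-17-5p from miR-20a-5p, and U10A alone separated it from miR-106a-5p of the paralogous cluster miR-106a-363.

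In mm10 (GRCm38), the miR-17-92 members lay on the plus strand at chr14:115043684-115044496, a span of 813 bp, in an exon of the long non-coding RNA Mir17hg (chr14:115042879-115046727). The miR-106b-25 members lay on the minus strand at chr5:138165332-138165807, a span of 476 bp, inside Mcm7 (chr5:138164583-138172422). By GENCODE mouse release 21, miR-106b-5p was intronic in both Mcm7 transcripts that spanned it, while an exon lay over miR-93-5p and miR-25-3p in 1 of 3 spanning transcripts each. The mature sequences of miR-19b-3p and miR-92a-3p are also encoded, without any difference, by Mir19b-2 and Mir92-2 on chromosome X. Their reads cannot be told apart by locus, so that values of these 2 members hold both origins.

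The libraries held from 4039837 to 12178454 reads on listed features. The labels' cell type was checked on 7 myeloid miRNAs, of which 7 were at 10 counts per 1000000 counts on listed features (CPM) or more in each Ion Proton library. The SOLiD table listed 5 of the 7, and all 5 passed this level in each library. Of 16 miRNAs that mark other cells, the Ion Proton table listed 8, of which up to 1 reached 10 CPM per library, with a summed level from 29.1 to 39.4 CPM. miR-205-5p and miR-133a-3p were not among those 8. The SOLiD table listed 14 of the 16, so that the sums of the runs cover different markers. In the SOLiD libraries 12 reached 10 reads per 1000000 (RPM), with a summed level from 7408 to 11782 RPM. These were led by the epithelial miR-205-5p, and the erythroid miR-451a was at up to 3988 RPM. The other erythroid marker, miR-144-3p, was at 1.46 to 2.97 RPM in the SOLiD libraries. The summed level was 9868 RPM in control cells and 7969 RPM after withdrawal in total RNA, and 7408 and 11782 RPM in size-selected RNA. The listed myeloid miRNAs summed to between 99937 and 388233 RPM in the SOLiD libraries. Their sum was between 51459.5 and 74484 CPM in the Ion Proton libraries, and miR-21a-5p was the highest of them in every library. The part of the markers of other cells in the members' SOLiD values was not tested. The share of reads on miRNA features was lower after withdrawal within each run and fraction. It went from 41.0% ± 0.855 to 30.2% ± 0.244 (SD, n = 2 each) in the Ion Proton run, from 82.2% to 41.3% in SOLiD total RNA and from 87.4% to 45.1% in size-selected RNA. A level in CPM or RPM therefore moves with the other RNA classes too, and each change below is also given relative to miRNA reads. Less miRNA per cell and more of other small RNAs cannot be told apart from such shares.

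In control macrophages sequenced on the Ion Proton, miR-92a-3p was by far the most abundant member, and the levels of the 9 members spanned from 4.51 to 14366 CPM in the same library. All members have nearly the same length, so that no correction for length was made, and the order below is that of this run and its library kit. miR-92a-3p had 14366 and 14209.7 CPM in the control libraries, and ranked 10 among mature miRNAs in both. miR-25-3p followed at 2002 and 2102 CPM, and miR-93-5p at 704 and 745 CPM. All others were low: miR-19b-3p had 47.3 and 56.3 CPM, miR-19a-3p 31.1 and 30.4 CPM, miR-20a-5p 24.2 and 23.3 CPM, and miR-17-5p 20.9 and 17.7 CPM. The lowest were miR-106b-5p, with 10.4 and 5.43 CPM, and miR-18a-5p, with 35 reads (4.51 CPM) in one control library and 0 in the other, where a floor of 3 counts is 0.418 CPM and the upper limit of the 95% Wilson interval 0.535 CPM. No pair of neighbours in this order overlapped over the 2 control libraries, although miR-20a-5p and miR-17-5p lay 2.38 CPM apart at their nearest values, less than the 3.19 CPM between both miR-17-5p values, and miR-106b-5p and miR-18a-5p lay 0.921 CPM apart, less than the 4.51 CPM between both miR-18a-5p values. After withdrawal miR-17-5p stood above miR-20a-5p, and every other member kept its place in the order. The 95% Wilson intervals of the 3 abundant members were within 3.63% of the value, against at least 9.76% for the others. They cover counting error only.

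**Figure D1:**
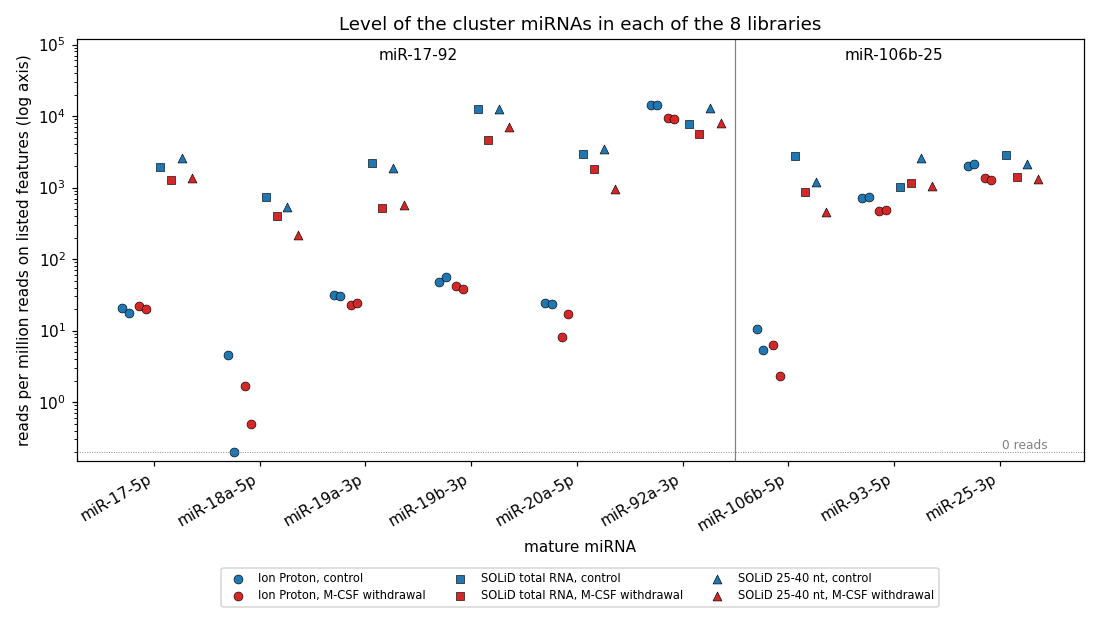
Reads per 1000000 reads on listed features (log axis, CPM for Ion Proton and RPM for SOLiD) of the 9 mature miRNAs in each of the 8 libraries, with 1 point per library, control in blue and M-CSF withdrawal in red. miR-92a-3p, miR-93-5p and miR-25-3p lie at similar heights in both runs, whereas the other 6 members lie far lower in the Ion Proton libraries. The point on the dotted line is the library with 0 reads of miR-18a-5p.

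The SOLiD libraries gave another order, led by miR-19b-3p. In the control library of total RNA, miR-19b-3p had 12617 RPM, miR-92a-3p 7778 RPM, miR-20a-5p 2971 RPM and miR-25-3p 2874 RPM. The next were miR-106b-5p at 2763 RPM, miR-19a-3p at 2219.7 RPM, miR-17-5p at 1953 RPM, miR-93-5p at 1006 RPM and miR-18a-5p at 732 RPM. Thus every member was well covered here, with intervals within 6.60% of the value in all SOLiD libraries. Relative to miRNA reads, the SOLiD control value exceeded the Ion Proton control mean by 7.36 on the log2 scale for miR-106b-5p, 7.08 for miR-18a-5p, 6.92 for miR-19b-3p, 5.94 for miR-20a-5p, 5.63 for miR-17-5p and 5.15 for miR-19a-3p. For miR-25-3p this log2 difference was -0.52, for miR-93-5p -0.53 and for miR-92a-3p -1.88. The median over 281 mature miRNAs was 1.00, and miR-106b-5p ranked 10 from the highest. The 6 members that were higher in SOLiD had a GC content of 34.8 to 47.8%, and the other 3 had 50.0 to 57.1%. Across the 9 members, Spearman's rho between GC content and the run difference was -0.61, against -0.11 across the 281 miRNAs, a description across sequences that share libraries. The library kits, the input and the mapping also differed between the runs, and their part was not tested.

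The make-up of each cluster also differed from run to run. In the Ion Proton libraries miR-92a-3p made up 99.1% of the summed miR-17-92 reads in both control libraries, and 99.0% and 98.9% after withdrawal. In SOLiD total RNA it made up 27.5% in control cells and 39.4% after withdrawal, while miR-19b-3p went from 44.6% to 32.3% and miR-19a-3p from 7.85% to 3.66%. In miR-106b-25, miR-25-3p took 73.7% of reads in both Ion Proton control libraries and miR-106b-5p at most 0.384%. In SOLiD total RNA miR-106b-5p took 41.6% in control cells and 24.996% after withdrawal, and miR-93-5p 15.1% and 33.7%. Despite these shifts, the summed miR-17-92 members were close to each other in both runs as a share of miRNA reads, with 3.59% and 3.45% in the Ion Proton controls and 3.44% in the SOLiD control of total RNA. The summed miR-106b-25 members took 0.673%, 0.686% and 0.809% in the same libraries.

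**Figure D2:**
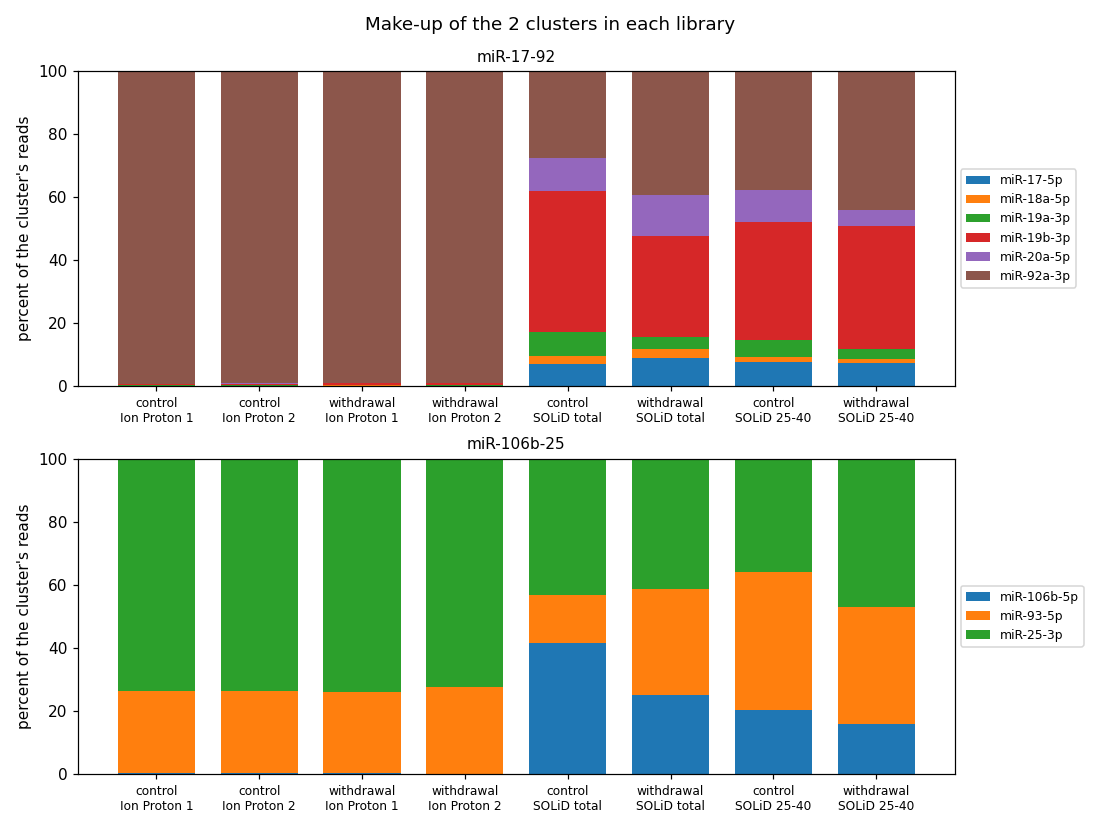
Stacked bars of the percentage of each cluster's reads (0 to 100) that came from each member, with 1 bar per library, miR-17-92 above and miR-106b-25 below. miR-92a-3p fills 98.9 to 99.1% of the miR-17-92 bar in the 4 Ion Proton libraries and 27.5 to 44.0% in the 4 SOLiD libraries.

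After M-CSF withdrawal, the 3 abundant members fell in the Ion Proton run, by log2 fold changes from -0.59 to -0.55. miR-92a-3p fell from 14366 and 14209.7 CPM to 9393 and 8996.5 CPM, so that both withdrawal libraries lay below both controls. This is a log2 fold change of -0.58, with a standard error of 0.0545 and an adjusted p of 0.00384 (edgeR's quasi-likelihood test, Benjamini-Hochberg adjustment over 2029 features). miR-25-3p, whose seed miR-92a-3p shares, fell from 2002 and 2102 CPM to 1354 and 1275 CPM, without overlap. The edgeR test gave a log2 fold change of -0.59, a standard error of 0.0703 and an adjusted p of 0.00766. miR-93-5p, a member with the miR-17 seed, fell from 704 and 745 CPM to 472 and 481 CPM, again without overlap, with a log2 fold change of -0.55 (standard error 0.0771, adjusted p = 0.0123, edgeR).

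The remaining 6 members did not pass the edgeR test in this run, and they were also those with few reads. miR-19b-3p had 47.3 and 56.3 CPM in control cells and 42.0 and 38.3 CPM after withdrawal (log2 fold change -0.31, adjusted p = 0.186, edgeR). miR-19a-3p had 31.1 and 30.4 CPM against 22.5 and 23.95 CPM (-0.35 on the log2 scale, adjusted p = 0.108, edgeR). For both, all withdrawal values lay below all control values, and miR-19b-3p passed the test without control replicate 1 (-0.55, adjusted p = 0.0424, edgeR), whereas without control replicate 2 it was at -0.17 (adjusted p = 0.409, edgeR). miR-20a-5p had 24.2 and 23.3 CPM in control cells and 8.13 and 17.0 CPM after withdrawal, which gave a log2 fold change of -0.87 (standard error 0.368, adjusted p = 0.185, edgeR). Its withdrawal libraries were lower too, but lay far apart from each other, and without withdrawal replicate 2 it passed the test at -1.51 (adjusted p = 0.0239, edgeR), against -0.40 (adjusted p = 0.351, edgeR) without withdrawal replicate 1. miR-17-5p, its near neighbour in sequence, had 20.9 and 17.7 CPM against 22.4 and 20.3 CPM, and was the only member with a log2 fold change above 0 (0.20, adjusted p = 0.42, edgeR), its groups overlapping. miR-106b-5p had 10.4 and 5.43 CPM against 6.29 and 2.31 CPM (-0.83, adjusted p = 0.382, edgeR), and its groups overlapped as well. With 1 library left out its log2 fold change ranged from -1.70, without withdrawal replicate 1, to -0.30, without withdrawal replicate 2. miR-18a-5p had 35 and 0 reads against 11 and 3 reads, with a log2 fold change of -0.99 and a standard error of 1.68 (adjusted p = 0.73, edgeR).

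Of the 9 members, 3 were thus lower past the threshold of 0.05 and 8 had a log2 fold change below 0, whereas 8.97% of the 2029 features tested and 13.3% of 600 mature miRNAs were lower past it. The median log2 fold change was -0.58 for the members, -0.39 for mature miRNAs and 0.077 for all features. When the TMM factors were computed over miRNA features only, the median over all features moved to 0.39 and that of mature miRNAs to -0.080. Then miR-92a-3p was the only member past the threshold, with a log2 fold change of -0.27 (adjusted p = 0.0465, edgeR), where 3.94% of features were lower. miR-25-3p was at -0.27 (adjusted p = 0.0708, edgeR) and miR-93-5p at -0.24 (adjusted p = 0.0962, edgeR) under this scaling. The call of miR-93-5p was also lost without M-CSF withdrawal replicate 1, which left 1 library in that group (log2 fold change -0.51).

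In SOLiD total RNA, 8 of 9 members were lower in the M-CSF withdrawal library, and the size differed widely between members. The miR-19 pair had low ratios: miR-19a-3p went from 2219.7 to 519 RPM (log2 ratio -2.09, 95% counting interval -2.14 to -2.05) and miR-19b-3p from 12617 to 4572 RPM (-1.46, interval -1.48 to -1.45). From the lowest ratio upwards, miR-19a-3p ranked 19 of 725 mature miRNAs. miR-106b-5p went from 2763 to 857 RPM (log2 ratio -1.69) and miR-25-3p from 2874 to 1417 RPM (-1.02). Smaller ratios were seen for miR-18a-5p, with 732 and 397 RPM (-0.88), for miR-20a-5p, with 2971 and 1821 RPM (-0.71), and for miR-17-5p, with 1953 and 1283 RPM (-0.61). miR-92a-3p had 7778 and 5578 RPM (-0.48). miR-93-5p went the other way, from 1006 to 1154 RPM (log2 ratio 0.20, interval 0.15 to 0.24). Without replicates these ratios compare 2 libraries and have no test. The labels give an RNA integrity number of 8.4 for the control and 7.5 for the withdrawal RNA of this pair, against 8.4 to 8.9 for the Ion Proton RNAs, and its part in the ratios was not tested.

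A log2 ratio of -1 or less was found for 4 of 9 members in SOLiD total RNA, against 9.27% of 2513 features and 21.9% of 725 mature miRNAs. The members' median log2 ratio was -0.88, that of mature miRNAs -0.49 and that of all features 0.18. The background includes features with as few as 5 summed reads, whose ratios the pseudocount of 1 draws towards 0. The members were all at 397 RPM or more, and the part of level in this comparison was not tested. Relative to miRNA reads, the members' median was 0.11 and that of mature miRNAs 0.17, and 4 of 9 members were lower. On this scale miR-19a-3p was at -1.10, miR-106b-5p at -0.70, miR-19b-3p at -0.47 and miR-25-3p at -0.028, whereas miR-93-5p was at 1.19, miR-92a-3p at 0.51, miR-17-5p at 0.39, miR-20a-5p at 0.29 and miR-18a-5p at 0.11.

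In the size-selected SOLiD libraries all 9 members had a lower RPM after withdrawal. Mature miRNAs are shorter than the selected 25 to 40 nt, so that full-length mature miRNAs lie outside the intended window. The labels give an RNA integrity number of 2.7 for the control and 2.6 for the withdrawal RNA. These numbers belong to RNA selected at 25 to 40 nt, so they are not comparable with those of total RNA. miR-20a-5p went from 3464 to 948 RPM (log2 ratio -1.87), miR-19a-3p from 1849 to 577 RPM (-1.68) and miR-106b-5p from 1203 to 449 RPM (-1.42). Here miR-93-5p was lower, with 2592 and 1054 RPM (-1.30), in contrast to total RNA. miR-18a-5p had 536 and 219 RPM (-1.29), miR-17-5p 2593 and 1345 RPM (-0.95), miR-19b-3p 12737 and 7125 RPM (-0.84), miR-25-3p 2146 and 1337 RPM (-0.68) and miR-92a-3p 12865 and 8022 RPM (-0.68). A log2 ratio of -1 or less was found for 5 of 9 members, against 9.62% of 2214 features and 23.4% of 728 mature miRNAs. As in total RNA, this background includes features with few reads, whose ratios the pseudocount draws towards 0. Relative to miRNA reads 5 of 9 members were lower, none of them at -1 or less. The median was -0.34 over the 9 members and 0.14 over mature miRNAs.

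**Figure D3:**
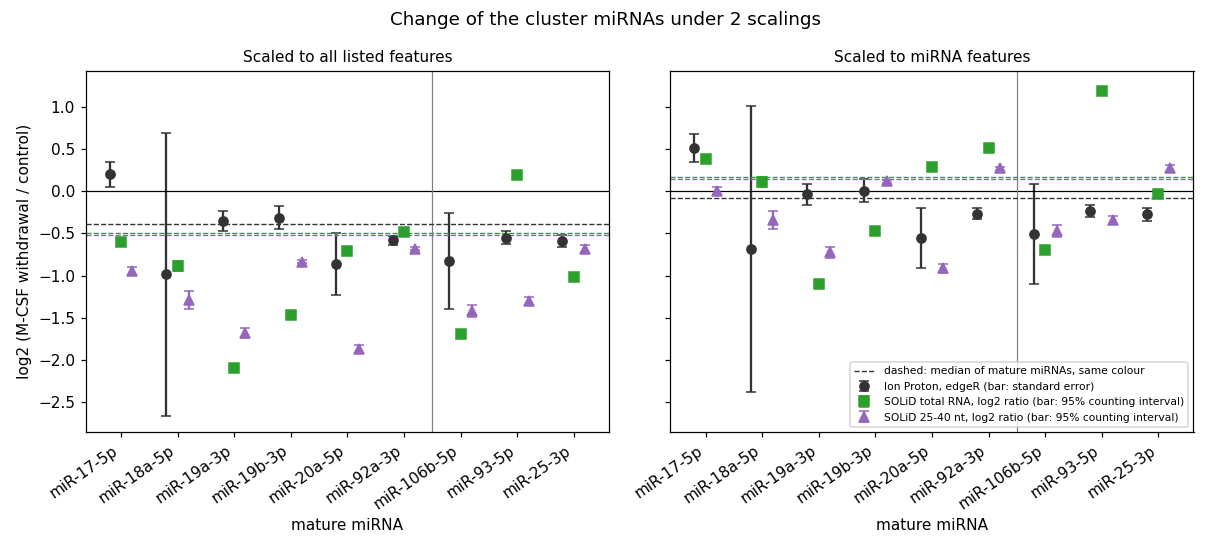
Log2 of M-CSF withdrawal over control for each member, scaled to all listed features (left) and to miRNA features (right): Ion Proton (edgeR, TMM over all or over miRNA features, bars of 1 standard error) and the SOLiD ratios (log2 of reads per 1000000 listed or miRNA reads plus 1, bars of the 95% counting interval). Dashed lines mark the median of mature miRNAs in the same colour. On the left nearly all points lie below 0, and on the right they scatter around it, from -1.10 for miR-19a-3p to 1.19 for miR-93-5p in SOLiD total RNA.

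Summed over its members, each cluster was lower after M-CSF withdrawal in CPM and RPM, and less so or not as a share of miRNA reads. The summed miR-17-92 members had 14415 ± 110.4 CPM in Ion Proton controls and 9293 ± 278 CPM after withdrawal (SD, n = 2 each), a log2 change of -0.63. The summed miR-106b-25 members had 2784 ± 96.2 and 1795 ± 52.0 CPM (SD, n = 2 each), also a log2 change of -0.63. Per 1000000 miRNA reads the miR-17-92 members had 35182 ± 1003 in controls and 30815 ± 1171 after withdrawal, and the miR-106b-25 members 6791 ± 93.1 and 5953 ± 221 (SD, n = 2 each). This is a log2 change of -0.19 for each cluster, and the libraries of both groups did not overlap. In SOLiD total RNA it was -0.996 and -0.95 per 1000000 listed reads, against -0.0047 and 0.037 relative to miRNA reads. In size-selected RNA it was -0.90 and -1.06, against 0.053 and -0.11. By its share of the reads, miR-92a-3p makes up nearly all of the Ion Proton sum of miR-17-92. That of miR-106b-25 is mostly miR-25-3p, at 72.5 to 73.9% of its reads, with miR-93-5p at 25.8 to 27.3%.

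When the 6 libraries of total RNA were fitted together, with the run as a term, 2 of 9 members passed the threshold. These were miR-92a-3p, with a log2 change of -0.58 (standard error 0.106, adjusted p = 0.0192, limma), and miR-25-3p, with -0.77 (standard error 0.141, adjusted p = 0.02, limma). Within each run, all withdrawal libraries were lower than all controls for both members. Of the 1701 features tested 5.70% were lower past the threshold, as were 9.71% of 443 mature miRNAs. The fitted log2 change was -1.10 for miR-106b-5p (adjusted p = 0.129, limma), -0.96 for miR-19a-3p (0.131), -0.87 for miR-20a-5p (0.0944), -0.72 for miR-19b-3p (0.118), -0.45 for miR-18a-5p (0.649), -0.34 for miR-93-5p (0.282) and -0.11 for miR-17-5p (0.762). With limma-voom and TMM factors on the reads, 5 members and 178 of the 1701 features were lower past the threshold, and miR-106b-5p was at -2.11 (adjusted p = 0.0193, limma), miR-20a-5p at -1.36 (adjusted p = 0.0195, limma) and miR-93-5p at -0.63 (adjusted p = 0.0298, limma). Under voom miR-19a-3p was at -1.80 (adjusted p = 0.0592, limma) and miR-19b-3p at -1.41 (adjusted p = 0.0625, limma). Relative to miRNA reads no member passed the threshold, with log2 changes from -0.56 to 0.52 and a lowest adjusted p of 0.173 (limma), and 0.118% of features were lower past it. Without any single Ion Proton library, controls included, no member passed it either, and the lowest adjusted p among the members was then between 0.0819 and 0.107 (limma), and at most 4 of the 1701 features were lower past it in these fits. Without the SOLiD control library 3 members passed, and without the SOLiD withdrawal library 4 did, where 244 and 242 features were lower.

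The change differed between the runs for 3 of 9 members, where 26.0% of 1701 features and 57 of 443 mature miRNAs differed. In this test, limma's term for treatment by run, the spread comes from the Ion Proton replicates, since the SOLiD libraries of total RNA have none. The log2 change in SOLiD minus that in Ion Proton was -1.71 for miR-19a-3p (standard error 0.166, adjusted p = 0.00313, limma) and -1.11 for miR-19b-3p (standard error 0.201, adjusted p = 0.0191, limma). For miR-93-5p it was 0.80 (standard error 0.121, adjusted p = 0.0114, limma), since this member fell in the Ion Proton run and was higher after withdrawal in SOLiD total RNA. For miR-92a-3p the difference was 0.16 (standard error 0.107, adjusted p = 0.344, limma). Relative to miRNA reads miR-19a-3p stayed past the threshold (-1.14, adjusted p = 0.0095, limma), as did miR-93-5p (1.35, adjusted p = 0.00193, limma), miR-19b-3p did not (-0.55, adjusted p = 0.0989, limma), and miR-92a-3p passed it (0.71, adjusted p = 0.00887, limma). On that scale 35.6% of features and 55 of 443 mature miRNAs differed between the runs. On both scales 3 of 9 members is near the share of all features and above that of mature miRNAs. Whether the members differ from other mature miRNAs in this was not tested.

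Each precursor hairpin also yields a passenger arm from its other strand, and for the miR-106b and miR-18a hairpins the prevailing arm depended on the run. miR-106b-3p, the other arm of miR-106b-5p, had 2534 and 2185 reads in the Ion Proton controls, where miR-106b-5p had 81 and 39. The main arm thus took 3.10% and 1.75% of the reads of both arms, and 2.97% and 0.966% after withdrawal. In SOLiD total RNA it took 96.7% and 94.6%. miR-18a-5p took between 0 and 31.3% of its hairpin's reads in the Ion Proton libraries, against 76.3 to 94.1% in the SOLiD libraries. For miR-17-5p the share was 47.5% and 39.2% in the Ion Proton controls and 59.3% and 53.0% after withdrawal, without overlap, whereas it was 94.4% and 92.5% in SOLiD total RNA and 95.8% and 95.2% in size-selected RNA. The higher share of miR-17-5p after withdrawal was not seen in the SOLiD run, and this difference was not tested. The arms of miR-19a, miR-19b, miR-20a, miR-92a and miR-25 that define the members held at least 98.4% of the reads of both arms wherever both were listed. miR-19b-3p and miR-92a-3p were set against miR-19b-1-5p and miR-92a-1-5p only. The passenger arms of Mir19b-2 and Mir92-2 were not listed, so that these 2 shares are not those of a single hairpin.

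**Figure D4:**
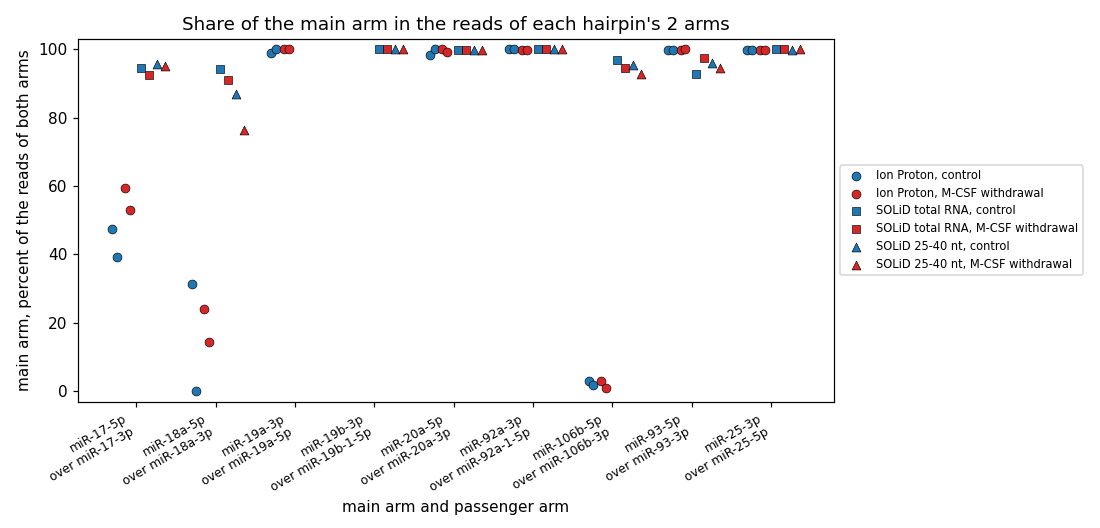
Share of the main arm (percent) in the summed reads of the main and passenger arm of each hairpin, with 1 point per library, control in blue and M-CSF withdrawal in red. miR-19b-3p and miR-92a-3p, encoded by more than 1 hairpin, are set against miR-19b-1-5p and miR-92a-1-5p only. miR-106b-5p is at 0.966 to 3.10% in the Ion Proton libraries and at 92.7 to 96.7% in the SOLiD libraries, and miR-17-5p and miR-18a-5p also lie lower in the Ion Proton run.

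In the edgeR test of the Ion Proton run, 8.97% of 2029 features and 13.3% of 600 mature miRNAs were lower past the threshold. Of the 9 passenger arms, 6 had enough reads for this test. Of these, 5 had a log2 fold change below 0 (median over the 6 of -0.76), and 1 was lower past the threshold. This was miR-106b-3p, with 327 and 304 CPM in control cells against 206 and 237 CPM after withdrawal (log2 fold change -0.46, standard error 0.112, adjusted p = 0.0497, edgeR). miR-17-3p had 23.1 and 27.4 CPM against 15.3 and 18.0 CPM (log2 fold change -0.55, adjusted p = 0.0942, edgeR). Of 6 miRNAs of the paralogous cluster miR-106a-363, 3 were tested. By edgeR or by limma's fit of both runs 0 passed, and 1 of the 3 (miR-20b-5p) had an unadjusted edgeR p under 0.05. Among these, miR-106a-5p had 12.9 and 9.75 CPM against 12.1 and 10.2 CPM, and a log2 fold change of 0.033 (adjusted p = 0.933, edgeR). In SOLiD total RNA miR-106a-5p went from 110.5 to 37.9 RPM (log2 ratio -1.52), ranking 52 of 725 mature miRNAs from the lowest. Its change differed between the runs (SOLiD minus Ion Proton -1.51, adjusted p = 0.0371, limma), where 26.0% of 1701 features differed. Relative to miRNA reads this difference did not pass (-0.97, adjusted p = 0.13, limma). Of the other miRNAs with a member's seed, 2 were tested and 1 was lower past the threshold. This was miR-92b-3p, which shares the miR-92 seed (log2 fold change -0.46, adjusted p = 0.0472, edgeR), whereas miR-32-5p, of the same seed, was at 0.28 (adjusted p = 0.936, edgeR). Under TMM factors over miRNA features, miR-106b-3p was at -0.15 (adjusted p = 0.415, edgeR) and miR-92b-3p at -0.15 (adjusted p = 0.491, edgeR). In the fit of both runs miR-106b-3p was at -0.65 (adjusted p = 0.0623, limma) and miR-92b-3p at -0.39 (adjusted p = 0.214, limma).

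Log2 values were centred within run and fraction, and 128 miRNAs were compared with the mean log2 level of each cluster's members. The most alike in pattern were ranked by Pearson's r over the 8 libraries. For miR-17-92 these were miR-322-3p (r = 0.989), miR-1981-5p (0.981) and let-7d-5p (0.972). For miR-106b-25 they were miR-425-5p (0.986), miR-15a-5p (0.973) and let-7b-5p (0.973). All points share the same libraries, whose share of miRNA reads was lower after withdrawal. For instance, miR-425-5p had 449.6 CPM in Ion Proton controls and 309 CPM after withdrawal, and 1826 and 1209.6 RPM in SOLiD total RNA.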

How the data were processed

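Small RNA libraries of mouse BMDMs were analysed from 2 deposited tables. Ion Proton reads were trimmed by the authors with cutadapt 1.2.1, dropped if under 15 bases, and mapped to mm10 with Bowtie2 2.2.4 (up to 10 places for each read). The authors deposited raw read counts per feature (miRBase release 21, tRNAs, Ensembl release 75). For the SOLiD run, the authors mapped reads with LifeScope and deposited RPM over listed features, written with decimal commas. All values were whole multiples of 1 read (within 0.01), which gave back the reads. Whether reads mapping to several places were counted at each is not given in the sources used here. The labels name small RNA as the Ion Proton extract, while the methods name total RNA.

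Ion Proton counts with a sum of at least 5 were tested with edgeR 4.0.16 (TMM, quasi-likelihood test). Both runs were fitted with limma 3.58.1 on log2 of the CPM or RPM plus 1, with intensity trend and run term, and treatment by run in a further fit, so that fold changes of low features are understated. P-values were adjusted by Benjamini-Hochberg over all features tested. SOLiD log2 ratios also use a pseudocount of 1, and their intervals cover counting error only. Shares of single libraries have 95% Wilson intervals. Alternatives were other size factors, DESeq2 1.42.0, scaling to miRNA reads, other filters and pseudocounts, voom, a replicate block and leaving out each library. Replicate Ion Proton libraries differed by more than counting noise (chi-square per degree of freedom of 20.3 and 19.1). The fits were tested on simulated data. R 4.3.3, Python 3.11.15, pandas 2.3.3 and statsmodels 0.14.6 were used. RefSeq matched 9 of 9 members.

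The named miRNAs were all 9 members, their passenger arms, the miR-106a-363 miRNAs, others with a member's seed, and the 3 most alike per cluster. The members and lists were chosen with earlier results of these data known.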

Additional observations from a re-analysis of the deposited data

Results flagged for a closer look

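The change after M-CSF withdrawal differed between the SOLiD and Ion Proton runs for 3 members, by limma's treatment by run term on total RNA. This test was passed by 26.0% of 1701 features and by 57 of 443 mature miRNAs. Thus 3 of 9 is near the share of all features and above that of mature miRNAs. The log2 difference (SOLiD minus Ion Proton) was -1.71 for miR-19a-3p, with log2 changes of -2.09 in SOLiD and, by edgeR, -0.35 in Ion Proton. It was -1.11 for miR-19b-3p, with -1.46 and -0.31. It was 0.80 for miR-93-5p, with 0.20 and -0.55. The SOLiD run has 1 library per condition, and its kit, input and mapping differed from those of the Ion Proton run, so that run and library cannot be told apart.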

How the results depend on the processing

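In the Ion Proton run, 500 features passed the threshold, and 299 to 528 did so with 1 library left out. The lowest counts, 299 and 312, came without M-CSF withdrawal replicate 1 and 2. The number of members called lower was 3, went to 1 with TMM over miRNA features and to 4 with RLE size factors in edgeR. Of the 2029 features, 182, 80 and 255 were lower in the same order. With RLE size factors miR-19a-3p passed as well (log2 fold change -0.47, adjusted p = 0.0461, edgeR). The log2 change of miR-19b-3p turned to 0.0037 with TMM over miRNA features, and that of miR-18a-5p to 5.86 without control replicate 1, which leaves the library with 0 reads as the sole control (range -2.08 to 5.86 with 1 library left out). In both runs together, 295 features and 2 members passed, against 15 to 564 features and 0 to 4 members with 1 library left out: 81, 19, 15 and 16 features without each Ion Proton library, and 564 and 560 without a SOLiD library. Median centring gave 4 members, voom 5 and scaling to miRNA reads 0, where 230, 178 and 2 of 1701 features were lower, against 97 as reported. The correlation of deviations of same-numbered Ion Proton libraries was 0.0056 over 852 features, so that the numbers were not taken as pairs. In both runs the replicate block gave 29 features, 1 of them lower, and 0 members. In the Ion Proton run it gave 359 features, 126 of them lower, and 3 members.

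Scaling to miRNA reads turned the log2 change in both runs for miR-17-5p (0.52), miR-18a-5p (0.21), miR-92a-3p (0.041) and miR-93-5p (0.29). Leaving out a library turned it for miR-18a-5p (0.20 without control Ion Proton replicate 1, range -1.21 to 0.20) and miR-17-5p (0.14 without either SOLiD library, range -0.24 to 0.14). The same scaling turned the run difference of miR-25-3p to 0.17. In SOLiD total RNA it turned miR-17-5p to 0.39, miR-18a-5p to 0.11, miR-20a-5p to 0.29 and miR-92a-3p to 0.51, and in size-selected RNA it turned miR-17-5p to 0.0063, miR-19b-3p to 0.12, miR-92a-3p to 0.27 and miR-25-3p to 0.27. Centring on the median of features at 10 RPM or more turned miR-93-5p to -0.23 in total RNA. The cause of these shifts was not tested. The 6 members not called in the Ion Proton run had at most 404 reads per library, and the part of depth was not tested.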

Other observations

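Markers of other cells kept similar ratios to each other across the 4 SOLiD libraries, which differ in condition and RNA fraction. For the 14 listed markers, the highest ratio to miR-451a over the lowest was at most 1.73 (miR-214-3p, at 5.75 to 8.14 RPM), and was 1.38 for miR-126a-3p and 1.31 for miR-143-3p. miR-205-5p, an epithelial miRNA, was 1.48 times miR-451a, an erythroid miRNA, in both control libraries, and 1.44 and 1.40 times in the withdrawal libraries of total and size-selected RNA. miR-150-5p, a lymphocyte miRNA, was between 0.151 and 0.17 times miR-451a, the epithelial miR-200c-3p between 0.211 and 0.250 times, and the muscle miRNA miR-133a-3p between 0.0825 and 0.0989 times. The other erythroid marker, miR-144-3p, was between 0.000591 and 0.000834 times miR-451a. The levels of miR-451a were 3227 and 2659 RPM in total RNA (control, withdrawal) and 2394 and 3988 RPM in size-selected RNA. The members' levels in any source of these markers were not measured here.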
